A study of Homo sapiens with 20 samples.

Results

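The endoplasmic reticulum (ER) chaperone and unfolded protein genes were taken as the 35 genes of a fixed list, found by symbol among the 57773 gene rows of each count table. All 35 were found, and all 35 passed the filter on low counts in both tables. Expression was measured by RNA-seq of total RNA from LNCaP, a human prostate adenocarcinoma line. Parental LNCaP cells were transfected for 2 days with siRNA pools at 20 nM, either against EHMT1 (siEHMT1, 2 samples) or nontargeting (siNTC, 2 samples). LNCaP-tet-EHMT1 cells carry a doxycycline-inducible EHMT1 open reading frame, introduced with a lentivirus, and were left untreated (Veh) or given 0.25 µg/mL of doxycycline for 2 days (Dox). There were 4 such lines, which carry wild-type EHMT1 (WT), the single lysine-to-arginine mutants K450R and K451R, and the double mutant K450RK451R. EHMT1 (GLP) is a lysine methyltransferase that acts on histone H3 and on other proteins, and the mutants remove lysines that were studied as methylation sites. All cells kept their own EHMT1 gene, and no line without the EHMT1 insert was analysed here, so the effect of doxycycline itself and that of the induced protein cannot be told apart. The sources used here do not say whether a line is 1 clone.

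The 2 columns deposited for each stable-line condition differed by no more than counting noise, as their chi-square over its degrees of freedom was 0.995 to 1.02, so each pair was summed and counted as 1 sample. The siRNA samples of 1 group differed by more than that, with values of 13.4 in siEHMT1 and 61.6 in siNTC, or 6.17 and 6.58 without the pseudogenes that resemble ribosomal RNA. The siRNA samples held between 5593400 and 12438006 counts, and the summed conditions between 8436791 and 12407739. The members took 0.741% to 0.935% of the counts of a siRNA sample and 0.744% to 0.840% of those of a stable-line condition. Sample siNTC replicate 2 had the fewest counts, and 10.0% of them lay on those pseudogenes. CPM are counts on a common library size after TMM normalization. At these depths the floor of 3 counts was 0.239 to 0.587 CPM in the siRNA samples and 0.232 to 0.368 CPM in the summed conditions. The floors, and the intervals of ratios within a line, cover counting error only, since the reads carry no molecular identifiers. The intervals of the fitted fold changes come from the edgeR fits instead. They hold the spread between samples or lines, which edgeR moderates with that of the other genes. The luminal prostate markers KLK3, KLK2, TMPRSS2, FOLH1, HOXB13, KRT8 and KRT18 were each at 180.1 CPM or more in every library, the lowest value being that of KRT8. Of 11 markers of leukocytes, fibroblasts, endothelium, basal and neuroendocrine cells, 7 had 1 count at most in every library, and COL1A1, VWF, KRT14 and SYP had more. Summed over the 11, the markers stood at 25.1 to 28.3 CPM in siNTC, 33.8 to 35.5 CPM in siEHMT1, 38.5 to 49.1 CPM in Veh and 37.2 to 42.4 CPM in Dox, so that they were higher in siEHMT1 than in siNTC without overlap, and their part in the results was not tested. In such bulk samples, fewer cells of a type and less RNA per cell cannot be told apart. EHMT1 was the check of the labels. It stood at 87.9 and 82.8 CPM in siNTC and 29.2 and 30.7 CPM in siEHMT1, a log2 fold change of -1.51 (SE 0.107, adjusted p = 1.48e-07), and with Dox it rose from 76.5 to 797 in WT, from 83.7 to 841 in K450R, from 71.0 to 727 in K451R, and from 88.4 to 661 in K450RK451R (CPM), a log2 fold change of 3.23 (SE 0.0694, adjusted p = 1.02e-23). Reads from the inserted reading frame are counted with those of the gene.

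Proteins that enter the secretory pathway fold in the ER with the help of chaperones, disulfide isomerases and lectins, and those that fail are carried back to the cytosol and degraded. When unfolded proteins build up, membrane sensors start the unfolded protein response. ATF6 is cut to release a transcription factor, ERN1 (IRE1) splices the XBP1 mRNA so that it encodes an active factor, and EIF2AK3 (PERK) phosphorylates a translation initiation factor, which lowers translation in general and raises that of ATF4. ATF6 and XBP1 act on ER stress response elements (ERSE) in promoters of chaperone genes, whereas ATF4 acts on other elements and on genes such as DDIT3 (CHOP). LNCaP cells secrete large amounts of glycoprotein, prostate-specific antigen among them. Gene counts cannot separate spliced from unspliced XBP1 mRNA, nor report on the cleavage or phosphorylation of the sensors.

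The promoters are shown first, because they hold the element by which many of these genes are known to be controlled. RefSeq windows of 250 bases before to 50 bases after the transcription start were matched for 31 of the 35 members, and PDIA3, DERL1, DERL3 and SEC24D had no entry. Both strands were searched for ERSE (CCAAT, then 9 bases, then CCACG), ERSE-II (ATTGG, then 1 base, then CCACG) and the TGACGTG core of the unfolded protein response element (UPRE). ERSE was found in 7 members (HSPA5, HSP90B1, CALR, CANX, PDIA6, CRELD2 and XBP1) and in 27 of all 35116 promoters (0.0769%). ERSE-II was found in 3 (HERPUD1, HYOU1 and SDF2L1) and in 19 of all promoters (0.0541%). The UPRE core was found in HYOU1 and SEC61A1 and in 692 of all promoters (1.97%). In HYOU1 the UPRE core overlaps an ERSE-II match. So 10 of the 31 members held an ERSE or ERSE-II against 46 of all promoters (0.131%). Since many members are known to be controlled through this element, the comparison is a description and not a test. Here and below, listed genes are counted once, with a match in any of their promoter entries, whereas the shares of all promoters count entries. The shares are thus not on the same unit as the gene counts. These are matches of letters, and no binding was measured here. Bases -180 to -31 from the start of 4 members that the results return to are printed 5′ to 3′ on the gene's strand, with capitals for the fixed letters of each ERSE or ERSE-II match that lies whole within the window. The matches in them lie at bases -66 to -48 in HSPA5, -89 to -71 in HSP90B1, where the element runs on the opposite strand, -52 to -34 in XBP1 and -117 to -107 in HERPUD1. In GRCh37 the printed windows lie at chr9:128003653-128003802 (- strand), chr12:104324008-104324157 (+ strand), chr22:29196588-29196737 (- strand) and chr16:56965874-56966023 (+ strand). The genes themselves span chr9:127997132-128003661, chr12:104323885-104347709, chr22:29190543-29196585 and chr16:56966054-56978776 in GENCODE. These spans take in the whole HSP90B1 window and the end of the HSPA5 window nearest the start. For HSP90B1 and HSPA5 the RefSeq start used here thus lies downstream of the outermost GENCODE start. RefSeq gives the starts on GRCh38.p14, and the windows were placed on GRCh37 by exact match.
HSPA5: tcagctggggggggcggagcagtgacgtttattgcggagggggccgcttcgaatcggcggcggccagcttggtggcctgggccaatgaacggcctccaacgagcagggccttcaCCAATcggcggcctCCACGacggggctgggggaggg
HSP90B1: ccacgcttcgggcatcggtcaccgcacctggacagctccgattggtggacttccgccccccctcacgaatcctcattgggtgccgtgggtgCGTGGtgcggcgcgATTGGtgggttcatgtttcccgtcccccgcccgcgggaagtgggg
XBP1: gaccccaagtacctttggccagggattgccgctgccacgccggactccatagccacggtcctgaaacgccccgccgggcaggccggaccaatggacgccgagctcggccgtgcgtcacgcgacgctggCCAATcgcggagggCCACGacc
HERPUD1: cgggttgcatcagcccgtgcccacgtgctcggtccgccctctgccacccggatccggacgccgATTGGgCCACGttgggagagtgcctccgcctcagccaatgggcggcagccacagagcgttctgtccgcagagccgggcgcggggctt

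The other matches upstream of the start, read on the strand on which the motif runs forward, show how the fixed ends are kept while the spacer letters vary, with the fixed letters in capitals. The ERSE matches lie at bases -225 to -207 in CALR, -80 to -62 in CRELD2, -194 to -176 in HSP90B1 (its distal match, of which the printed window holds only the last 5 bases) and -86 to -68 in PDIA6. The ERSE-II matches lie at -185 to -175 and, with the same letters, -79 to -69 in HYOU1 and at -188 to -178 in SDF2L1.
CALR: CCAATgatggtcgaCCACG
CRELD2: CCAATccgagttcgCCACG
HSP90B1: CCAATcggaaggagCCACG
PDIA6: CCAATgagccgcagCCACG
HYOU1: ATTGGaCCACG
SDF2L1: ATTGGtCCACG

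**Figure D1:**
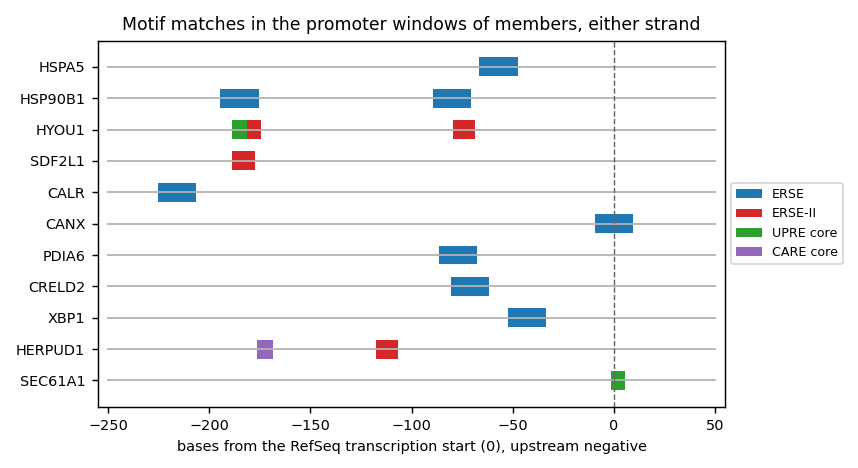
Matches of ERSE, ERSE-II, the UPRE core and the CARE core (an ATF4-type element) in the promoter windows of the 11 members that hold any, with the distance in bases from the RefSeq transcription start on the horizontal axis. HSP90B1 holds a pair of ERSE matches and HYOU1 a pair of ERSE-II matches, the distal one beside a UPRE core, and HERPUD1 holds an ERSE-II and a CARE core.

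Levels of the members covered a wide range. Levels were compared between genes per kb of merged exons, which sum the exons of every annotated isoform, so the order depends on the annotation. CALR (calreticulin, a calcium-binding lectin chaperone) was highest in the Veh conditions at 483 ± 27.3 CPM per kb (SD, n = 4 lines). The disulfide isomerase subunit P4HB (134 ± 6.82), the prolyl isomerase PPIB (111 ± 0.905) and PDIA4 (99.1 ± 2.998) followed, and these 4 differed per kb by more than their SDs. The SDs hold the spread between lines and not the choice of length. Before division by 2802 bases for CALR and 11132 for P4HB, their Veh means were 1355 and 1491 CPM, so P4HB was then the higher. Among the HSP70 and HSP90 class chaperones and their partners, HSP90B1 (GRP94) stood at 69.2 ± 5.92 CPM per kb, HYOU1 at 40.4 ± 1.14, MANF at 30.7 ± 2.36 and HSPA5 (BiP, the main ER HSP70) at 17.3 ± 2.14. The co-chaperones DNAJC3, SDF2L1, DNAJB9 and DNAJB11 lay lower, between 6.17 and 9.56 CPM per kb. The other foldases were PDIA6 (53.4 ± 5.77), CANX (52.7 ± 1.28), PDIA3 (19.1 ± 1.48), CRELD2 (5.35 ± 0.609) and ERP44 (3.67 ± 0.105). Reads of PDIA3 could be split with the pseudogene PDIA3P1, whose row held 6172 counts over the lines against 18151 for PDIA3.

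Of the regulators, XBP1 was highest at 41.7 ± 2.13 CPM per kb. Per kb the sensors lay below it, with ATF6 at 5.36 ± 0.272, ERN1 at 3.80 ± 0.129 and EIF2AK3 at 1.54 ± 0.176. The membrane-bound factor CREB3L4 was between at 12.3 ± 1.81 CPM per kb. The size and order of these gaps depend on the exon length. Undivided Veh means were 126 CPM for XBP1, 76.4 for ATF6, 72.9 for ERN1, 35.8 for CREB3L4 and 31.8 for EIF2AK3. In ER-associated degradation, the lectin OS9 (31.6 ± 0.866), the ubiquitin-like domain protein HERPUD1 (19.6 ± 1.90) and the ligase adaptor SEL1L (12.9 ± 0.558) led. The mannosidase-like EDEM1, the derlin DERL1, the ligase SYVN1 (HRD1) and DERL2 followed between 4.61 and 9.26 CPM per kb. Of the translocation and export genes, SEC61B (48.5 ± 3.08) and SEC61A1 (30.6 ± 1.37), subunits of the translocon, were above SSR1 (10.5 ± 0.775) and the vesicle coat gene SEC24D (5.18 ± 0.721). DERL3 (0.815 ± 0.375) and the signal peptidase subunit SPCS2 (0.506 ± 0.206) were lowest, with 256 and 126 counts over all 8 conditions. SPCS2 has a pseudogene row, SPCS2P4, with 399 counts, and 2923 of the 3796 exon bases of DERL3 are shared with a gene on the other strand, so both rows are uncertain. In all, 20 of the 35 members share exon bases with a gene on the other strand and 5 with one on the same strand. Among the 4 Veh conditions the highest level of a member was 1.02 to 2.49 times the lowest, with a median of 1.17. Neighbours in the order whose SD ranges overlapped were PDIA6, CANX and SEC61B, then XBP1 and HYOU1, then OS9, MANF and SEC61A1, then HERPUD1, PDIA3 and HSPA5. From SEL1L down the SD ranges of neighbours also overlapped, except between EDEM1 and SDF2L1, between DERL2 and ERN1, and on both sides of EIF2AK3.

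The control samples of both experiments were set side by side, on CPM of tables that were normalized separately and with no test, since experiment, cell line and library preparation run cannot be told apart. HSPA5 stood at 179.5 to 222 CPM in siNTC and 97.0 to 130.4 CPM in Veh. HYOU1 stood at 406 to 457 CPM in siNTC and 267 to 286 CPM in Veh, and SDF2L1 at 28.5 to 31.5 CPM in siNTC and 8.13 to 9.08 CPM in Veh, the lowest ratio among the members (0.288). The lines lay below siNTC without overlap in 20 of 35 members and above it in 8, against 40.0% and 29.3% of the 13617 genes tested in both tables. Those above were the sensors ERN1 (2.85 times the siNTC mean) and ATF6 (1.46 times), with OS9, DNAJB9, CANX, SEC24D, P4HB and HERPUD1. The ATF4 arm, a list of 13 genes around ATF4 and its targets, lay higher in the lines. This list was drawn up with earlier results of these data known, so the shares of all genes beside it are descriptive. Its median log2 difference was 1.86, against -0.28 for the members and -0.099 for all genes, and 11 of 13 were above siNTC without overlap. DDIT3, a stress-induced transcription factor, stood at 18.7 to 23.7 CPM in siNTC and 334 to 432 CPM in Veh, a ratio of means of 18.0. DDIT4, an inhibitor of mTORC1 signalling, had a ratio of 11.8. PPP1R15A (GADD34), which reverses the PERK signal, had one of 11.6, and the stress factor ATF3 one of 11.5. ATF4 itself had a ratio of 3.63. More than 2-fold higher were 8 of the 13 ATF4-arm genes and 1 of the 35 members, against 9.09% of all genes. Only EIF2S1 and EIF2AK4 of the 13 were lower, and these encode the phosphorylated initiation factor subunit and another of its kinases.

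**Figure D2:**
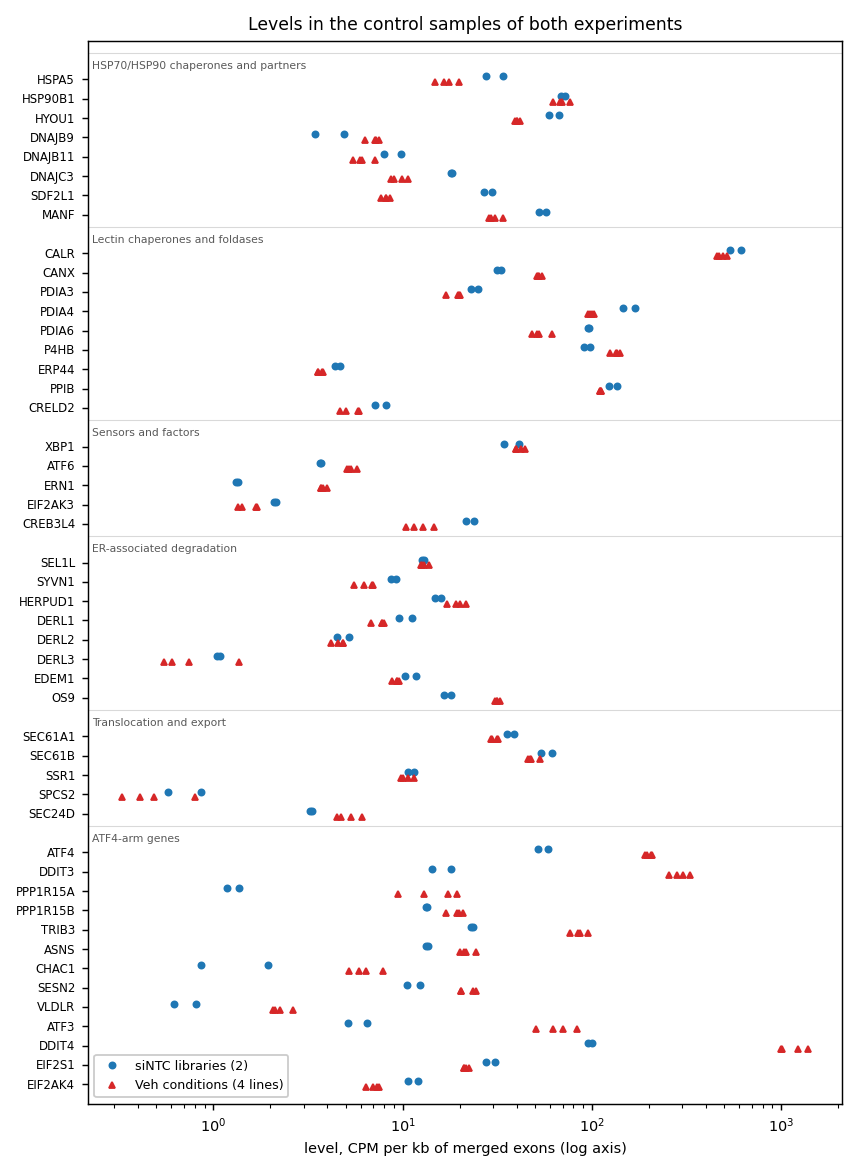
Levels of the 35 members by role and of the 13 ATF4-arm genes, in CPM per kb of merged exons on a log axis, in the 2 siNTC libraries (circles) and the 4 Veh conditions (triangles). CALR is the highest member in both experiments, and DDIT3, DDIT4, ATF3 and PPP1R15A lie far to the right of siNTC in the Veh conditions while HSPA5 lies to the left.

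The knockdown comparison asked how lowering EHMT1 changed these genes. No member passed an adjusted p under 0.05 in edgeR's quasi-likelihood test, where 0.131% of the 14532 genes tested did. DESeq2 and limma-voom also called none. At an unadjusted p under 0.05 there were 2 members of 35 (5.71%), against 9.55% of all genes. The median log2 fold change of the members was -0.072, against -0.0021 for all genes. Of the members 25 of 35 (71.4%) were negative, against 50.4% of all genes and 61.0% of the other ER genes described below. For 20 members, and for 3047 of the 14532 genes tested, the 95% interval of the difference lay within a log2 change of 0.32 in either direction. That size is a ratio 25% above 1 or its inverse. The 15 other members were HSPA5, DNAJB9, SDF2L1, CALR, ERP44, ERN1, EIF2AK3, CREB3L4, SYVN1, DERL1, DERL3, EDEM1, OS9, SPCS2 and SEC24D. The median SE was 0.105 for the members and 0.160 for all genes. The labels do not say that the samples of a group came from separate cultures, so the spread between these samples may be technical. Because edgeR moderates each gene's spread, the p-values rest on these samples and in part on the other genes. With 2 samples a group, many genes separate without overlap by chance, and the share of all genes that do is not given here. Most genes described below were picked for a small p in this comparison, so a lack of overlap adds nothing to their p-values.

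CREB3L4, a membrane-bound factor of the ATF6 kind that is abundant in prostate epithelium, had the smallest p. It stood at 68.9 and 62.8 CPM in siNTC and 85.9 and 88.4 CPM in siEHMT1. Both siEHMT1 samples lay above both siNTC samples, with a log2 fold change of 0.40 (SE 0.0995, adjusted p = 0.142), so it did not pass the test. XBP1 stood at 125 and 104 CPM in siNTC and 122 and 115 CPM in siEHMT1, and its groups overlapped (0.047, 95% interval -0.16 to 0.26). ERN1 stood at 25.9 and 25.3 CPM in siNTC and 28.1 and 32.5 CPM in siEHMT1, again without overlap, with a log2 fold change of 0.24 (SE 0.135, adjusted p = 0.599). EIF2AK3 stood at 43.3 and 44.6 CPM in siNTC and 38.8 and 38.0 CPM in siEHMT1, lower without overlap but with an adjusted p of 0.609. The fifth gene of the group, ATF6, differed by -0.072 on the log2 scale. So the estimates of this group did not share a direction, and none of them passed the test.

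Of the chaperones, HSPA5 stood at 222 and 179.5 CPM in siNTC and 165 and 207 CPM in siEHMT1. The groups overlapped, and the log2 difference was -0.11 (95% interval -0.34 to 0.12). HSP90B1 stood at 945 and 896 CPM in siNTC and 943 and 861 CPM in siEHMT1, with overlap and a log2 difference of -0.034. The 8 genes of this group had a median log2 fold change of -0.055, and none was at an unadjusted p under 0.05. Among the 9 lectins and foldases (median -0.071, none under 0.05), CALR stood at 1726 and 1503 CPM in siNTC and 1921 and 1727 CPM in siEHMT1. The lower siEHMT1 sample was level with the higher siNTC sample, and the log2 difference was 0.17 (95% interval -0.053 to 0.40). ERP44, which retains proteins through thiols, stood at 62.7 and 66.2 CPM in siNTC and 59.0 and 53.3 CPM in siEHMT1, lower without overlap (adjusted p = 0.570).

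In the degradation group (median -0.072), DERL1, a channel component for export to the cytosol, stood at 66.2 and 78.3 CPM in siNTC and 61.9 and 59.9 CPM in siEHMT1. It was lower without overlap, with a log2 fold change of -0.25 (SE 0.109, adjusted p = 0.468). OS9 stood at 157 and 145 CPM in siNTC and 171 and 169 CPM in siEHMT1, higher without overlap (adjusted p = 0.565). HERPUD1, a sensitive target of both ATF6 and ATF4, stood at 80.5 and 75.6 CPM in siNTC and 84.1 and 85.9 CPM in siEHMT1, higher without overlap and with a log2 difference of 0.12 (95% interval -0.085 to 0.32). The 5 translocation and export genes all had negative estimates (median -0.13), and none was at an unadjusted p under 0.05. SEC24D among them stood at 32.2 and 33.1 CPM in siNTC and 27.1 and 29.9 CPM in siEHMT1, lower without overlap (adjusted p = 0.657). The 10 members with an ERSE or ERSE-II had a median of -0.042, and the 21 with a promoter and neither had -0.072.

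Of 105 other ER genes tested, on a list of folding, translocation, glycosylation, degradation and transport genes, none was called and 12 (11.4%, against 9.55% of all genes) were at an unadjusted p under 0.05, of which 8 were lower. The smallest p values belonged to CREB3, a relative of CREB3L4 (log2 fold change 0.39, SE 0.125, adjusted p = 0.274), the glucosyltransferase UGGT1 that senses misfolded glycoproteins (-0.30, SE 0.0958, adjusted p = 0.281) and the oxidoreductase TMX3 (-0.37, SE 0.127, adjusted p = 0.32). None of the 13 ATF4-arm genes was called. Asparagine synthetase (ASNS) was the closest, at 67.1 and 65.4 CPM in siNTC and 56.1 and 51.2 CPM in siEHMT1, with a log2 fold change of -0.31 (SE 0.105, adjusted p = 0.319). DDIT4 (-0.20) and EIF2AK4 (-0.17) followed, and ATF4 stood at 152 and 135 CPM in siNTC and 156 and 156 CPM in siEHMT1.

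**Figure D3:**
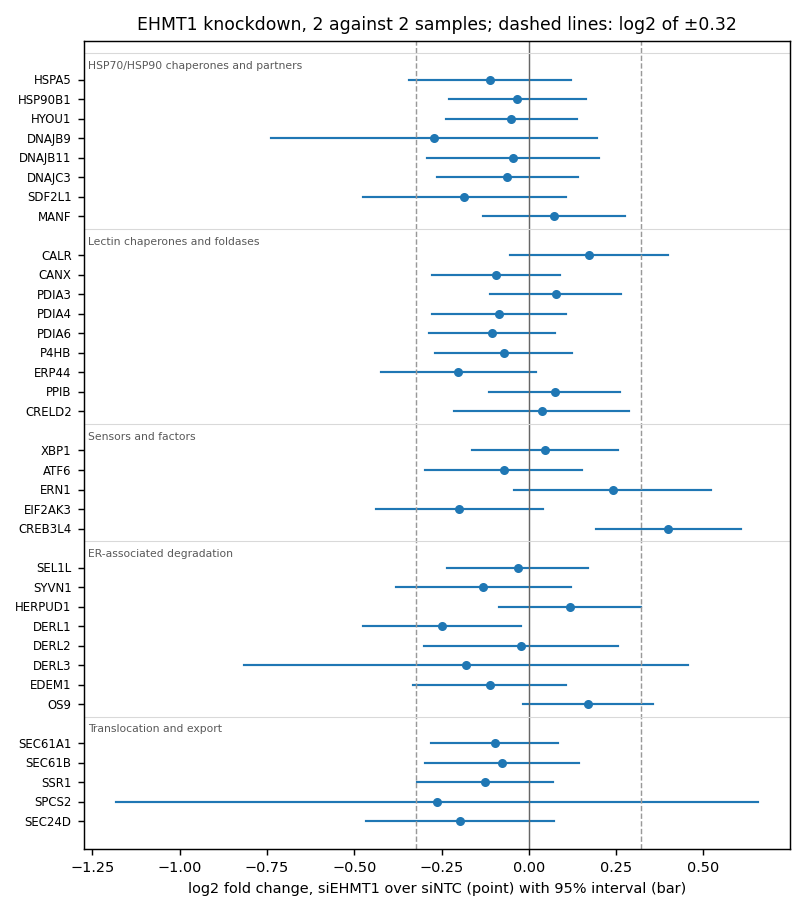
Log2 fold change of each member between 2 siEHMT1 and 2 siNTC samples (point) with its 95% interval (bar), by role, with dashed lines at log2 values of 0.32 and its negative. CREB3L4 has the highest estimate, at 0.40, and the bars of DERL3, SPCS2 and DNAJB9, which have few counts, are the widest.

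The induction comparison asked what 2 days of Dox changed, with the 4 lines as replicates and line as a block. No member passed an adjusted p under 0.05 in edgeR, where 2.11% of the 14105 genes tested did, nor in DESeq2 or limma-voom. At an unadjusted p under 0.05 there were 3 members (8.57%), against 14.4% of all genes, and all 3 were lower. The members' median log2 fold change was -0.0066, and that of all genes 0.0050. For 29 of 35 members, and for 5830 of the 14105 genes tested, the 95% interval lay within 0.32 on the log2 scale in either direction. The 6 other members were SDF2L1, CREB3L4, SYVN1, DERL2, DERL3 and SPCS2. The median SE was 0.0702 for the members and 0.117 for all genes. In all 4 lines, 3 members were higher with Dox (PDIA6, XBP1 and DERL1, 8.57% against 11.2% of all genes) and 5 were lower (HSP90B1, CANX, P4HB, DERL2 and SEC61A1, 14.3% against 9.72%). The number of counts and the share on the mitochondrial ribosomal RNA MT-RNR2 also moved with Dox. The Dox condition had 0.730 times the Veh counts in WT and 1.14, 1.37 and 1.19 times in K450R, K451R and K450RK451R, and MT-RNR2 was lower with Dox in the lines other than K450R. The part of either in the results was not tested.

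HSP90B1, which folds integrins and other secretory clients, had the smallest p. Its level went from 915 to 808 in WT, from 888 to 865 in K450R, from 1004 to 840.3 in K451R, and from 816 to 771 in K450RK451R (CPM). It was lower with Dox in 4 of 4 lines, while the Veh and Dox ranges overlapped, and the log2 fold change was -0.15 (SE 0.0523, adjusted p = 0.159). HSPA5 went from 108 to 103 in WT, from 116 to 104 in K450R, from 97.0 to 97.1 in K451R, and from 130.4 to 116 in K450RK451R. It was lower in 3 lines and level in K451R, with a log2 fold change of -0.10 (SE 0.0614, adjusted p = 0.460). CANX (calnexin) went from 719 to 702 in WT, from 723 to 675 in K450R, from 751 to 671 in K451R, and from 709.5 to 656 in K450RK451R, lower in 4 of 4 lines by a log2 fold change of -0.11 (SE 0.0508, adjusted p = 0.312), and its highest Dox level was below its lowest Veh level. P4HB went from 1574 to 1544 in WT, from 1511 to 1335 in K450R, from 1391 to 1386 in K451R, and from 1485 to 1369 in K450RK451R, a log2 fold change of -0.089 (SE 0.0514, adjusted p = 0.454). The 8 chaperones and partners had a median of -0.025 and the 9 foldases -0.018.

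XBP1 went from 121 to 122 in WT, from 121 to 138 in K450R, from 128 to 153 in K451R, and from 134 to 139 in K450RK451R (CPM). Each line was higher with Dox, least in WT, and the log2 fold change was 0.12 (SE 0.0606, adjusted p = 0.354). The 5 sensors and factors had a median of 0.013. In the degradation group (median 0.055), the ligase SYVN1 went from 38.2 to 25.6 in WT, from 37.7 to 30.6 in K450R, from 30.3 to 31.6 in K451R, and from 34.4 to 31.1 in K450RK451R, a log2 fold change of -0.25 (SE 0.0962, adjusted p = 0.206). It was lower in all lines but K451R, and its ratio was lowest in WT. Its adaptor SEL1L went from 119 to 139.6 in WT, from 124 to 123 in K450R, from 121 to 130.5 in K451R, and from 131 to 144 in K450RK451R, higher in all lines but K450R (0.11, SE 0.0605, adjusted p = 0.396). DERL1 went from 54.3 to 58.2 in WT, from 54.3 to 62.3 in K450R, from 55.5 to 57.4 in K451R, and from 47.4 to 56.3 in K450RK451R, higher in 4 of 4 (0.14, SE 0.0729, adjusted p = 0.379). HERPUD1 went from 87.1 to 101 in WT, from 97.4 to 115 in K450R, from 110.1 to 110.1 in K451R, and from 102 to 104 in K450RK451R, so that K451R alone was level, and the log2 fold change was 0.11 (SE 0.0644, adjusted p = 0.462). The translocation and export genes had a median of -0.00026. The members with an ERSE or ERSE-II had a median of 0.019 and those without -0.0066.

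Of the 13 ATF4-arm genes 5 were called, and all 5 were lower. Over all genes 298 were called (2.11%), of which 213 were lower and 85 higher. The list was drawn up with earlier results of these data known, so setting its count beside that share is a description and not a test. ATF3 went from 336 to 300.5 in WT, from 250.5 to 196 in K450R, from 281 to 195 in K451R, and from 203 to 152 in K450RK451R (CPM), a log2 fold change of -0.37 (SE 0.0598, adjusted p = 0.000482). PPP1R15A went from 66.6 to 61.2 in WT, from 59.7 to 28.4 in K450R, from 44.8 to 21.8 in K451R, and from 32.7 to 24.7 in K450RK451R (-0.63, SE 0.113, adjusted p = 0.00164). Both were lower with Dox in each of the 4 lines, and least so in WT. DDIT4 went from 2857 to 2949 in WT, from 2528 to 1907 in K450R, from 2077 to 1642 in K451R, and from 2046 to 1552 in K450RK451R (-0.28, SE 0.0622, adjusted p = 0.0115). DDIT3 went from 432 to 438 in WT, from 367 to 288 in K450R, from 397 to 317 in K451R, and from 334 to 245 in K450RK451R (-0.28, SE 0.0622, adjusted p = 0.0117), and ATF4 went from 539 to 554 in WT, from 544 to 476 in K450R, from 511 to 405 in K451R, and from 497 to 386 in K450RK451R (-0.22, SE 0.0596, adjusted p = 0.0492). These 3 were lower in the mutant lines and slightly higher in WT, and the Veh and Dox ranges of all 5 overlapped across lines. DDIT3 and ATF4 are described because they were called, and were chosen after their values were seen. Not every target followed, since ASNS was higher in 4 of 4 lines (0.18, SE 0.0616, adjusted p = 0.133) and the ATF4 target TRIB3 had a log2 fold change of 0.085. The calls rested on the tool and the lines. DESeq2 called 3 of the 13, a fit without the line block none, and without the K450R line ATF3 alone was called. Without the K451R line or without the K450RK451R line 2 were called.

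Of the 105 other ER genes 1 was called, TRAM1, which aids the entry of nascent chains into the ER. It went from 39.0 to 46.0 in WT, from 41.3 to 60.1 in K450R, from 46.3 to 55.8 in K451R, and from 42.7 to 51.4 in K450RK451R (CPM), a log2 fold change of 0.32 (SE 0.0785, adjusted p = 0.0255), and it was not called by DESeq2, from column 1 alone, without the line block, or without the K450R or the K451R line. EDEM3, which trims mannose from glycoproteins, was next (0.34, SE 0.0942, adjusted p = 0.0561), then the membrane-bound factor CREB3L2 (-0.24, SE 0.0722, adjusted p = 0.0761). At an unadjusted p under 0.05 there were 14 of the 105 (13.3%), against 14.4% of all genes.

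**Figure D4:**
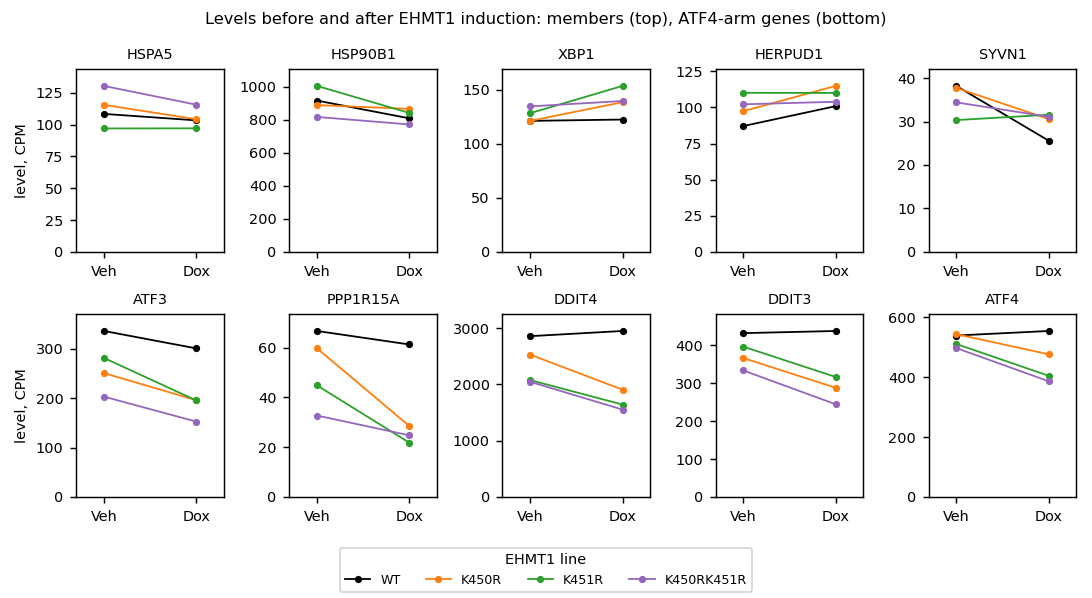
Levels in CPM (vertical axes from 0) without (Veh) and with Dox in the 4 lines, 1 colour per line. The top row shows the members HSPA5, HSP90B1, XBP1, HERPUD1 and SYVN1, and the bottom row the 5 called ATF4-arm genes, of which PPP1R15A goes from 59.7 to 28.4 in K450R and from 66.6 to 61.2 in WT.

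Within a line there was 1 sample per condition and no test, so members past 0.32 on the log2 scale in either direction were counted, and each ratio was given a 95% interval for counting error. In WT, 2 members (5.71%) were past that size, against 26.5% of all genes, and 1 was past 2-fold, against 3.93%. In K450R it was 1 member (2.86%), against 30.0%, and none was past 2-fold, against 4.61%. In K451R it was 4 (11.4%), against 29.4%, with none past 2-fold, against 3.94%. In K450RK451R it was 6 (17.1%), against 32.4%, and none was past 2-fold, against 4.84%. The members had more counts than other genes, with a median of 747 per condition against 194 for all genes tested, so their ratios have less counting error.

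In WT the ratio furthest from 1 with at least 100 counts was that of SYVN1, at 0.670 times the Veh level, with an interval of 0.569 to 0.788. CREB3L4 in WT was at 0.833 (0.714 to 0.971), SEL1L at 1.17 (1.09 to 1.27) and HERPUD1 at 1.16 (1.06 to 1.27). The member past 2-fold in WT was DERL3, at 2.07 (1.247 to 3.49) on 27 and 42 counts. In K450R no member with 100 counts or more passed that size. SYVN1 came closest at 0.810 (0.687 to 0.954), followed by SDF2L1 at 0.833 (0.588 to 1.18), HERPUD1 at 1.18 (1.08 to 1.29) and CREB3L4 at 1.18 (1.00 to 1.38). In K451R the co-chaperone SDF2L1 was at 1.42 (1.07 to 1.91) and DNAJB11, which brings substrates to HSPA5, at 0.796 (0.709 to 0.892). XBP1 was at 1.196 (1.11 to 1.29) in that line and HSP90B1 at 0.837 (0.813 to 0.862). DERL3 and SPCS2, both with few counts, were also past that size in K451R, both lower, and SPCS2 was the single such member in K450R. In K450RK451R 4 members were higher, CREB3L4 at 1.40 (1.21 to 1.61), SDF2L1 at 1.31 (1.00 to 1.72), CRELD2 at 1.253 (1.06 to 1.48) and SPCS2, and 2 were lower. The latter were SEC24D at 0.726 (0.646 to 0.815) and ATF6 at 0.793 (0.719 to 0.875). ATF6 in the 3 other lines was higher with Dox, by a log2 ratio of 0.12 to 0.16. The median log2 ratio of the members was 0.020 in WT, -0.038 in K450R, -0.00084 in K451R and 0.024 in K450RK451R.

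**Figure D5:**
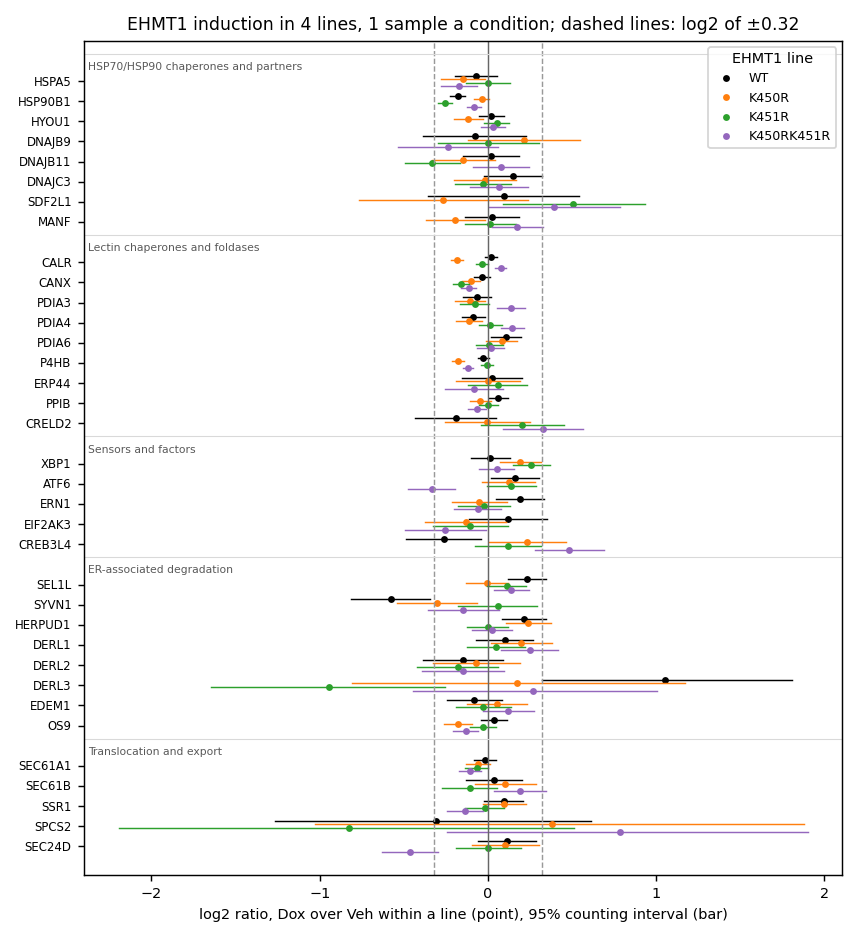
Log2 ratio of Dox over Veh for each member in each of the 4 lines (points) with 95% counting intervals (bars), by role, with dashed lines at log2 values of 0.32 and its negative. Most points lie between the dashed lines, SYVN1 in WT lies at -0.58, and DERL3 and SPCS2 have the widest bars.

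The interaction asked if the Dox effect of the 3 mutant lines differed from that of WT. It rests on 1 WT line, assumed to vary like the mutants, and on 2 residual degrees of freedom, to which edgeR's moderation adds information from the other genes. The Dox to Veh ratio of total counts also set WT apart (0.730 against 1.14 to 1.37), and its part was not tested. No member was called by edgeR, where 0.163% of all genes were, nor by DESeq2 or limma-voom. At an unadjusted p under 0.05 there were 3 members (8.57%), against 7.10% of all genes. The 95% interval lay within 0.32 in either direction for 7 of 35 members, against 603 of the 14105 genes tested. The 7 were HSP90B1, HYOU1, CALR, CANX, PDIA3, P4HB and SEC61A1, and the intervals of the other 28 members reached past it. The median SE was 0.161 for the members and 0.265 for all genes. The median log2 difference, mutants minus WT, was -0.053 for the members and -0.0017 for all genes.

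CREB3L4 had the smallest p, with a level that went from 37.1 to 30.9 in WT, from 33.3 to 39.2 in K450R, from 42.5 to 46.2 in K451R, and from 30.3 to 42.3 in K450RK451R (CPM). It was lower with Dox in WT and higher in each mutant line, a log2 difference of 0.53 (SE 0.201, adjusted p = 0.557). SYVN1, described for Dox, was lowest relative to Veh in WT, and its log2 difference was 0.43 (SE 0.209, adjusted p = 0.695). DERL3 went from 2.29 to 4.74 in WT, from 2.08 to 2.34 in K450R, from 5.18 to 2.69 in K451R, and from 2.82 to 3.403 in K450RK451R, on 256 counts in all, and the difference was -1.30 (SE 0.622, adjusted p = 0.689). ERN1 went from 73.1 to 83.3 in WT, from 70.9 to 68.5 in K450R, from 71.1 to 70.0 in K451R, and from 76.3 to 73.2 in K450RK451R, so that it was higher with Dox in WT alone (-0.25, SE 0.151, adjusted p = 0.783). EIF2AK3 went from 29.5 to 32.0 in WT, from 35.04 to 32.0 in K450R, from 34.8 to 32.4 in K451R, and from 27.9 to 23.4 in K450RK451R and also was higher in WT alone (-0.30, SE 0.207, adjusted p = 0.819). CRELD2, an ERSE-holding foldase, went from 30.4 to 26.6 in WT, from 30.1 to 30.04 in K450R, from 26.0 to 29.9 in K451R, and from 24.0 to 30.1 in K450RK451R (0.36, SE 0.218, adjusted p = 0.786). OS9 went from 274 to 281 in WT, from 285 to 252 in K450R, from 267 to 262 in K451R, and from 273 to 249 in K450RK451R (-0.16, SE 0.116, adjusted p = 0.834), and SEC24D went from 53.3 to 57.6 in WT, from 47.2 to 50.7 in K450R, from 44.5 to 44.6 in K451R, and from 60.6 to 44.005 in K450RK451R (-0.26, SE 0.187, adjusted p = 0.837). For HSPA5 the log2 difference was -0.053 (95% interval -0.33 to 0.23), for HSP90B1 0.040, for XBP1 0.14 and for HERPUD1 -0.14.

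Over all genes 23 were called in the interaction, of which 22 were lower in the mutants against WT and 1 was higher. In the ATF4 arm, DDIT4 was called, with a log2 difference of -0.44 (SE 0.0918, adjusted p = 0.0231), the direction of nearly all these calls. It was lower with Dox in each mutant line, at 0.754, 0.790 and 0.759 times the Veh level in K450R, K451R and K450RK451R, and 1.03 times in WT. Without the K450RK451R line its adjusted p was 0.0525. DDIT3 (-0.41, SE 0.1105, adjusted p = 0.198) and PPP1R15A (-0.73, SE 0.199, adjusted p = 0.202) went the same way and were not called. Among the other ER genes none was called and 3 of 105 (2.86%, against 7.10% of all genes) were at an unadjusted p under 0.05, those of the smallest p being SRP54 (0.43, SE 0.163, adjusted p = 0.557), MBTPS2, the protease that completes the cleavage of ATF6 (0.80, SE 0.386, adjusted p = 0.695), and SRP68 (-0.41, SE 0.200, adjusted p = 0.6997). SRP54 and SRP68 belong to the particle that brings ribosomes to the ER.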

How the data were processed

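RNA-seq counts of LNCaP cells were used, from 4 siRNA samples and 16 stable-line columns. The authors deposited raw counts of reads per Ensembl gene, with no normalization. Per the labels, total RNA libraries were made with a stranded kit, and the processing notes name hg19, FastQC 0.11.9, STAR 2.7.2 and featureCounts 1.6.4. The annotation release, strand setting and treatment of multimapping reads were not given in the sources used here, so overlapping genes may share reads. The paper names limma for quantification.

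Counts were tested with edgeR 4.0.16 (quasi-likelihood, TMM, default filter by group) in R 4.3.3, with Benjamini-Hochberg adjustment over all 14532 (siRNA) or 14105 (stable-line) genes and calls at an adjusted p under 0.05. limma 3.58.1 and DESeq2 1.42.0 were alternatives. The columns of each stable-line condition were summed, and the fit held line as a block. Within a line, ratios have exact conditional 95% intervals. Samples were grouped by their labels. The siRNA samples held 5593400 to 12438006 counts in total, and the summed conditions 8436791 to 12407739. Levels per length used merged exons of GENCODE release 44 on GRCh37, in which 55538 of 57773 identifiers were found. Promoters are RefSeq's.

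The members and lists were chosen with earlier results of these data known. HSPA5, HSP90B1, XBP1 and HERPUD1 were named for their roles. Also named were the 8 members with the smallest p in each comparison, the 4 with the largest ratio in each line (at least 100 counts) and the 3 genes with the smallest p on each other list. The CARE core (TGATG, then 1 base, then AA) was added after the data were examined and was in 1270 of 35116 promoters (3.62%). The procedures were tested on simulated counts. Samples with siEHMT2 were not analysed here.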

Additional observations from a re-analysis of the deposited data

Results flagged for a closer look

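Among 52 genes examined over the 4 lines, 7 had 1 line whose log2 ratio of Dox over Veh stood apart from the other 3. For 3 of the 35 members this was so, where chance alone gives about 1 in 20 if the 4 ratios are normal with equal spread. The share of all genes with such a line is not given here, so the 3 members are not read as an excess. The other genes examined were named mostly for small p-values in these same data, so the rate of 1 in 20 does not apply to them. PDIA3 was at 0.13 in K450RK451R and at -0.11 to -0.065 elsewhere. ATF6 was at -0.33 in K450RK451R and at 0.12 to 0.16 elsewhere. ERN1 was at 0.19 in WT and at -0.060 to -0.022 elsewhere. Of the other genes, DDIT4 was at 0.046 in WT (-0.41 to -0.34 elsewhere) and SRP54 at -0.34 in WT (0.067 to 0.14 elsewhere). TRAM1 was at 0.54 in K450R (0.24 to 0.27 elsewhere), and EHMT1 rose least in K450RK451R, at 2.90 (3.33 to 3.38 elsewhere). For DDIT4 the interaction in edgeR, which rests on the same ratios and on 1 WT line, gave mutants minus WT as -0.44 on the log2 scale (adjusted p = 0.0231, or 0.0525 without the K450RK451R line).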

How the results depend on the processing

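Of 745 combinations of a named gene and an alternative, 704 kept their direction and their call. The count of members called stayed at 0 under each alternative in the lines. In the siRNA samples it became 1 with the replicate block (CREB3L4, adjusted p = 0.0277), and 118 genes were then called against 19. Same-numbered siRNA samples did not deviate together (r = -0.0021 over 14532 genes). This single correlation showed no pairing by number, but it cannot exclude one. The block changed no other member's call. The members at an unadjusted p under 0.05 were 1 with DESeq2 for siEHMT1. For Dox they were 5 with limma-voom, with upper-quartile normalization or with no filter on low counts, and 1 to 6 with a line left out (1 without K451R, 6 without WT). For the interaction they were 0 with DESeq2, 1 with the legacy quasi-likelihood, column 1 alone or column 2 alone, and 1 to 4 with a mutant line left out. ATF4-arm genes called with Dox were 3 with DESeq2, 0 with no line block and 1 to 5 with a line left out, and in the interaction 2 with column 1 alone and 1 to 3 with a line left out. ATF4, the weakest call, missed the threshold under 9 of 15 alternatives. The siEHMT1 median of the members was -0.048 with upper-quartile normalization. All genes called were 12 to 118 for siEHMT1, 4 to 501 for Dox and 15 to 101 for the interaction. Small differences changed sign. In siEHMT1, HSPA5 ranged from -0.29 to 0.044 with 1 sample left out (0.041 without siNTC replicate 1, 0.044 without siEHMT1 replicate 1), HSP90B1 from -0.10 to 0.031 (without siEHMT1 replicate 2) and XBP1 from -0.073 (without siNTC replicate 2) to 0.18. In the interaction, HSPA5 was 0.017 with column 2 alone and HSP90B1 -0.0058 without K450R. Within lines, members past 0.32 on the log2 scale became 4 in WT with column 1 alone, and in K450R 3 with upper-quartile normalization and 4 with either column alone. Their medians with upper-quartile normalization were -0.099, -0.039 and -0.028 in K450R, K451R and K450RK451R. With library size alone they were 0.061 in WT, 0.11 in K451R and 0.16 in K450RK451R, where that scaling moved every gene by 0.041, 0.11 and 0.13. Leaving out genes above 1% of the counts, chosen after seeing the data, changed no count of members called. The cause of these changes was not tested. DERL3 and SPCS2 are limited by their counts.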

Other observations

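The CARE core, an ATF4-type element, was found in the promoter windows of 4 of the 13 ATF4-arm genes (ASNS, ATF3, CHAC1 and PPP1R15B) and of 1 member, HERPUD1, against 3.62% of all promoter entries. As the list was built around ATF4 and its targets, this too is a description and not a test. None of the 13 held an ERSE or ERSE-II. Of these 4, ATF3 was lower and ASNS higher with Dox in 4 of 4 lines, and ATF3 passed the test while ASNS did not. Among the 94 other ER genes with a promoter entry, ERO1LB and SERP1 held an ERSE, and 14 held the UPRE core.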
